A study of Rattus norvegicus with 18 samples.

Results

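Broad domains of 5-hydroxymethylcytosine (5hmC) were examined in primary rat Schwann cells, the glia that ensheathe and myelinate axons of peripheral nerves. A broad domain is a region of the deposited hMeDIP peak list that spans at least 3000 bases on chromosomes 1 to 20, whatever its annotation. The rule found 2142 domains among 215951 peaks, 0.992% of the peaks, and these domains held 4.89% of the total peak length, or 8.64 Mb. Width alone chose them, and no read count entered the choice. The peaks were nevertheless called on hMeDIP libraries, and how neighbouring calls became 1 region is not stated by the labels or headers, so width is not free of the signal. A further 12 peaks were as wide but lay outside chromosomes 1 to 20 and are not counted here.

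The cells were taken at passage 3, either treated with vitamin C (VitC) or left as controls, and the labels used here give no strain, sex, dose or length of treatment. Each group had 3 hMeDIP libraries, in which DNA carrying 5hmC is precipitated with an antibody, 3 libraries of genomic input DNA, and 3 libraries of RNA depleted of ribosomal RNA. Nothing in the labels says whether the numbered samples came from separate cultures, so each p-value reflects only how far these samples scatter, possibly for technical reasons. In hMeDIP, libraries 1 and 3 of each group differed by less than the sampling noise and were summed and counted as 1 sample, which leaves n = 2 in each group. The hMeDIP libraries held 24020306 to 39899445 reads in peaks, the input libraries 7201638 to 9521037, and the RNA libraries 23381814 to 33173282 reads in genes. In RNA, VitC library 1 stood apart from the other VitC libraries, and several RNA results are given without it as well. Defining Schwann cell markers were present: the summed RNA level of 9 such genes was 11747 to 12368 CPM (reads per 1e6 counted reads) in VitC libraries and 11822 to 12225 CPM in control libraries. Macrophage markers summed to at most 2.04 CPM in VitC libraries and 2.27 CPM in control libraries.

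5hmC is made when TET enzymes oxidize 5-methylcytosine, a reaction that needs iron and 2-oxoglutarate and that vitamin C is known to promote. The mark is typically found in the bodies of transcribed genes and around enhancers, and it can be an intermediate of DNA demethylation or persist as a stable mark. hMeDIP measures how many precipitated fragments come from a region, so a wide region collects more reads than a narrow one at the same density.

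Some domains covered the starts of genes or lay at or near microRNA genes. Sequences of these loci are shown because a start site or a mature microRNA is the part of such a locus with a defined function. The transcript start lay inside the domain for 98 domains, those at non-coding genes included. Among their genes 74 were protein-coding, and 49 of these had an entry in the RefSeq promoter table (GRCr8). For each gene 1 RefSeq entry was used, which was not matched to the transcript whose start lay inside the domain. In a gene with several starts it may be another start. In the 250 bases before this RefSeq start, these 49 genes had a median of 12 CG dinucleotides, the site at which TET enzymes act. The median was 6 over 27457 rat promoters, to which no limit to protein-coding genes was applied. Gene class was thus not matched in this comparison. CG, which reads the same on both strands, occurred 10 or more times in 55.1% of the 49 and in 38.4% of all, and at least 1 time in 98.0% and 92.5%. RefSeq starts with many and with few CG both occurred among genes whose domain was higher in VitC cells. The 3 examples show a CG-rich and a CG-poor RefSeq start of genes with a domain called higher with vitamin C. The last is a CG-rich RefSeq start of a gene with a domain called lower. Each CG is in capitals, 5′ to 3′ on the coding strand.
Cadm4: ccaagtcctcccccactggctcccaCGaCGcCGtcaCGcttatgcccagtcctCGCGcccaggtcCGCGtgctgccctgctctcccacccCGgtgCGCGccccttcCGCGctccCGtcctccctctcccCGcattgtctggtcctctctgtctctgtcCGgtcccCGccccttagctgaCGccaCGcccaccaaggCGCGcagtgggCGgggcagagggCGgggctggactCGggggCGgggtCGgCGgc
Gfap: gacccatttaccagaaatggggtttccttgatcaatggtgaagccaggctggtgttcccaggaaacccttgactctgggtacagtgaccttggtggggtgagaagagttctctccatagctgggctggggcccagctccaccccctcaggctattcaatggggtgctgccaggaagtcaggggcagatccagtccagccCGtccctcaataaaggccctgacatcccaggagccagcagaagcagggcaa
Phox2a: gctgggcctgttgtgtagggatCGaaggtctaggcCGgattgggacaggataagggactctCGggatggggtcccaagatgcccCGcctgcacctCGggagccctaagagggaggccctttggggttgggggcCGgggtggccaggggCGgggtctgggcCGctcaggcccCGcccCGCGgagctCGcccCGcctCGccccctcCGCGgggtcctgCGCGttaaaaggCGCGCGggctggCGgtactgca
Cadm4, a cell adhesion molecule of the Schwann cell internode, had 27 CG in this window. Gfap, an intermediate filament of non-myelinating Schwann cells and astrocytes, had 1. Phox2a, a transcription factor of autonomic neurons, had 22. RefSeq places these 250 bases at chr1:89202839-89203088 (plus strand) for Cadm4, chr10:88361662-88361911 (minus strand) for Gfap and chr1:165590507-165590756 (plus strand) for Phox2a in GRCr8, a build whose positions are not comparable with those of the peak list.

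The peak list annotated 10 domains with a microRNA gene, and 7 of these genes had mature sequences in the RefSeq table. Of these 7, the 5 whose domain was called higher with vitamin C are shown with the seed, bases 2 to 8, in capitals. No 2 of the 9 mature sequences of the 7 genes shared a seed.
miR-23a-3p: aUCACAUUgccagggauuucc
miR-29b-3p: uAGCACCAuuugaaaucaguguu
miR-149-5p: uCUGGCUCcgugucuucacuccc
miR-3074: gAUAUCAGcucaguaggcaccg
miR-6329: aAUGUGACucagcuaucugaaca
The miR-29 family is known for targeting collagen and other matrix transcripts, and miR-23a is processed from a cluster with miR-27a and miR-24. The values of these domains stand with those of the promoter domains.

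The domains were long, gathered in long genes and often stood in rows. Their width ranged from 3000 to 18485 bases with a median of 3624.5, and 277 domains spanned 5000 bases or more. Gene bodies held 63.4% of the domains, against 42.5% of all peaks, and intergenic DNA held 28.3%, against 47.9%. The 3 promoter classes of the list together held 8.22% of domains and 8.08% of all peaks. Domains in gene bodies lay a median of 28.0 kb from the transcript start and 37.0% of the way along the transcript, against 38.5 kb and 49.2% for narrower peaks. The transcripts that held them had a median length of 72.9 kb, each transcript counted once, against 34.0 kb for narrower peaks. A gene was assigned to 1535 domains, and these were 859 different genes, of which 575 held 1 domain, 284 held 2 or more and 51 held 5 or more. Another domain lay within 10 kb of 38.5% of the domains.

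The widest domain, of 18485 bases, lay in Socs5, a suppressor of cytokine signalling, at chr6:10678529-10697014 in the coordinates of the list, for which no genome build is stated. It was followed by a domain of 13054 bases in Zeb2, a zinc-finger repressor that Schwann cells need for myelination, at chr3:29961999-29975053. Domains of 12795 bases in Pxn, the focal adhesion protein paxillin, 12612 bases in Vps37b, an ESCRT-I subunit, and 12501 bases in Sh3pxd2b, a podosome scaffold, completed the 5 widest. The most domains in 1 gene were in Nav2, a cytoskeletal regulator of neurite growth. It held 22, and 13 of these stood in a row with gaps of at most 10 kb over chr1:104613637-104729097. Sh3pxd2a, another podosome scaffold, held 14, Stard13, a regulator of the actin cytoskeleton, 13, and Tgfbr3, the TGF-beta co-receptor betaglycan, 12.

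Over the whole peak list, more broad domains were higher than lower in hMeDIP of VitC cells. With edgeR's quasi-likelihood test over all peaks (Benjamini-Hochberg adjusted p under 0.05), 1389 of 2142 domains were called higher, 64.8%, beside 36.9% of all peaks, and 303 were called lower, 14.1%, beside 36.3%, so that 73.2% of all peaks were called in either direction. The median log2 change, VitC over control, was 0.25 in the domains and 0.05 over all peaks. All 2142 domains passed the filter on low counts. The changes were mostly under 1 on the log2 scale: 20 called domains were above 1 and 2 were below -1. In 1429 domains every VitC library was above every control library, beside 38.6% of all peaks, and in 358 every VitC library was below, beside 38.3%. In gene bodies, 935 of 1359 domains were called higher and 152 lower, with a median of 0.28. In intergenic DNA 330 of 606 were called higher and 130 lower, with a median of 0.16, and in the promoter classes 123 of 176 were called higher and 21 lower, with a median of 0.31.

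How many domains counted as higher depended on the peaks they were set against. The peak list runs through the genome 2 times, and no label or header says what separates the passes. In the first pass 87.1% of all 68432 peaks were called lower and 2.89% higher, with a median log2 change of -0.99. In the second pass 52.6% of 147519 peaks were called higher and 12.8% lower, with a median of 0.30. The first pass held 266 domains, of which 126 were called higher and 68 lower, with a median of 0.10. The second held 1876, of which 1263 were called higher (67.3%) and 235 lower (12.5%), with a median of 0.27. When the second pass was scaled and fitted on its own peaks, a setting added after the data were seen, 652 of these 1876 domains were called higher (34.8%) and 710 lower (37.8%), beside 27.0% and 29.2% of all its peaks. The excess of higher over lower domains refers to the whole list and did not hold among second-pass peaks scaled to each other.

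Wider domains had larger changes, most evenly in the second pass. In the second pass the median log2 change was 0.23 for domains of 3000 to 3999 bases, 0.28 for 4000 to 4999, 0.37 for 5000 to 6999 and 0.44 for 7000 or more. In the first pass the same classes had medians of 0.07, 0.04, 0.22 and 0.27, which did not rise at every step, with 22 domains of 5000 to 6999 bases and 11 of 7000 or more. Of the 244 second-pass domains of 5000 bases or more, 122 were called higher and 53 lower when that pass was scaled alone, with a median of 0.09. Narrow peaks did not follow the same order: second-pass peaks under 500 bases had a median of 0.42, and the lowest class median of that pass, 0.17, was at 1500 to 1999 bases. Across the 2142 domains, Spearman's correlation of width with the log2 change was 0.14, as a description of regions that share libraries. Just inside the threshold, at 3000 to 3098 bases, the median was 0.23 (n = 233), and just outside, at 2900 to 2999 bases, 0.20 (n = 311).

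**Figure D1:**
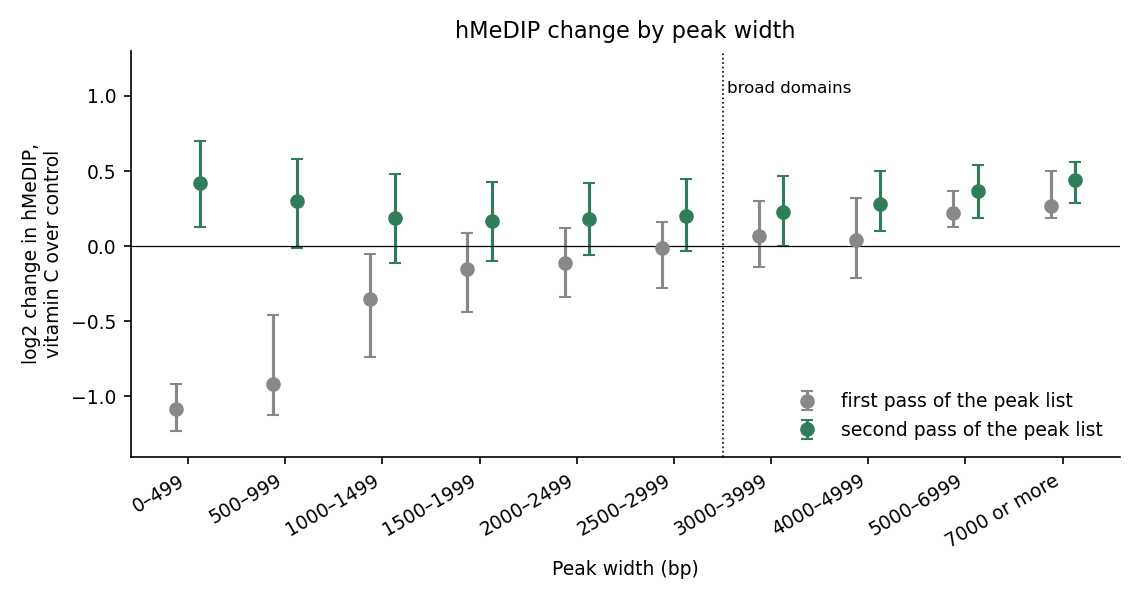
Median log2 change in hMeDIP, VitC over control (vertical axis), for peaks of chromosomes 1 to 20 in 10 classes of width (horizontal axis, bases); bars span the 25th to 75th percentile, green points the second and grey points the first pass of the peak list. Among domains of 3000 bases or more the second-pass medians run from 0.23 to 0.44, while first-pass peaks under 500 bases have a median of -1.08.

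The share of reads that fell in domains showed the same difference without a fit. Of hMeDIP reads in peaks, 5.91%, 6.02% and 5.88% lay in domains in VitC libraries 1 to 3, against 4.87%, 4.75% and 4.95% in control libraries 1 to 3. No VitC library overlapped with a control library. The means were 5.96 ± 0.0921% in VitC cells and 4.83 ± 0.118% in control cells (SD, n = 2 each), with an exact two-sided permutation p of 0.333, the smallest this design allows. Of reads in second-pass peaks alone, domains held 6.66 ± 0.0637% in VitC cells and 6.28 ± 0.0263% in control cells (SD, n = 2 each). Of reads in first-pass peaks they held 3.43 ± 0.132% in VitC cells and 1.98 ± 0.124% in control cells (SD, n = 2 each). In input DNA the share was 4.48 ± 0.0141% in VitC cells and 4.51 ± 0.0306% in control cells (SD, n = 3 each; exact two-sided permutation p = 0.300, smallest possible 0.100).

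**Figure D2:**
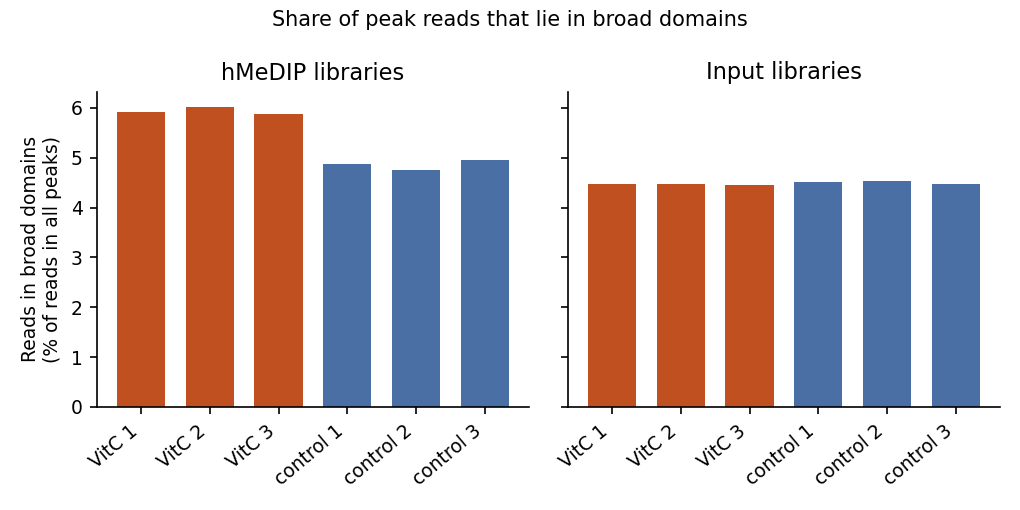
Share of the reads in all peaks that lay in broad domains (vertical axis, percent) in each hMeDIP library (left panel) and each input library (right panel), VitC in orange and control in blue. The 3 VitC hMeDIP libraries lie between 5.88% and 6.02% and the 3 control ones between 4.75% and 4.95%, while all input libraries lie between 4.46% and 4.54%.

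Relative to input, reads in domains were also denser than in narrower peaks, by an amount that differed between the groups over both passes together. The share of hMeDIP reads in domains relative to the share of input reads, taken over all counted reads, was 6.62 ± 0.353 in VitC cells and 4.02 ± 0.418 in control cells (SD, n = 2 each). For narrower peaks it was 4.91 ± 0.191 in VitC cells and 3.74 ± 0.271 in control cells. Domains thus stood 1.35 ± 0.0193 times above narrower peaks in VitC cells and 1.07 ± 0.0333 times in control cells (exact two-sided permutation p = 0.333, the smallest possible). These values mix the passes. The ratio was 6.11, 6.60 and 6.13 in VitC and 3.94, 3.66 and 4.54 in control libraries for second-pass domains of 3000 to 3999 bases. For second-pass peaks of 500 to 999 bases it was 5.07, 5.39 and 5.04 in VitC and 3.25, 3.06 and 3.72 in control libraries. First-pass peaks under 500 bases had 2.81, 2.78 and 2.88 in VitC and 4.38, 4.44 and 4.47 in control libraries. Per kilobase, the median domain had 6.45 CPM in VitC cells and 5.48 CPM in control cells, and the median narrower peak had 4.91 CPM in VitC cells and 5.46 CPM in control cells. In the input fit, 0 domains and 0 of 215759 peaks were called by edgeR, 112 domains had an unadjusted p under 0.05, beside 4.86% of all peaks, and the median log2 change of the domains was -0.015. In a fit of hMeDIP relative to input, 1109 domains were called higher, beside 20.8% of all peaks, and 175 lower, beside 28.3%.

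The 5 domains with the smallest p among those called higher lay in intergenic DNA and in Fgf5, Fam78b, Map4k4 and Zeb2. An intergenic domain at chr12:1228482-1231869, in a row of 7 domains that begins in Stard13, had hMeDIP levels of 25.1, 28.3 and 25.5 CPM in VitC libraries and 8.91, 9.40 and 9.51 CPM in control libraries. Its log2 change was 1.53 (SE 0.07), with an adjusted p of 6.49e-23 from edgeR's quasi-likelihood test, the smallest of all domains called higher. Fgf5, a growth factor of the FGF family, held a domain of 8141 bases at chr14:12982542-12990683 with 70.3, 68.8 and 67.9 CPM in VitC libraries and 34.9, 32.2 and 32.6 CPM in control libraries. The VitC libraries were all about 2 times as high as the control libraries (log2 change 1.07, SE 0.05, edgeR adjusted p 3.85e-22). Fam78b, a gene of little-known function, held 6 domains, all called higher, of which the one at chr13:85202332-85206118 had 32.6, 33.1 and 31.3 CPM in VitC libraries and 13.5, 13.1 and 13.8 CPM in control libraries. Map4k4, a kinase upstream of JNK, held 8 domains, all called higher, and the one at chr9:46715154-46719074 had 36.1, 33.6 and 35.3 CPM in VitC libraries and 15.2, 15.3 and 15.3 CPM in control libraries. In Zeb2 all 8 domains were called higher, and that at chr3:29916411-29922995 had 57.6, 63.1 and 58.4 CPM in VitC libraries and 29.7, 28.6 and 30.5 CPM in control libraries. The log2 change was 1.28 in the Fam78b domain, 1.20 in the Map4k4 domain and 1.04 in the Zeb2 domain, each with non-overlapping groups. Each of these 5 domains was in the second pass of the list and was also called higher with that pass scaled alone.

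Domains called lower were fewer and more often intergenic. Of the 5 with the smallest p, 3 were intergenic, and 4 of the 5 stood in the first pass of the list, where most peaks were called lower. The domain at chr1:215789475-215793132 had 17.3, 17.3 and 17.6 CPM in VitC libraries and 38.3, 42.4 and 35.4 CPM in control libraries (log2 change -1.14, SE 0.06, edgeR adjusted p 5.39e-21). In Ptprn2, a receptor-type phosphatase of secretory granules, the domain at chr6:144575547-144578571 averaged 11.6 ± 0.0509 CPM in VitC cells and 27.2 ± 2.73 CPM in control cells (SD, n = 2 each), a log2 change of -1.18. The second-pass exception was in Atp2b1, a plasma membrane calcium pump, at chr7:41141241-41144756, with 18.2, 19.0 and 19.0 CPM in VitC libraries and 33.4, 35.2 and 33.5 CPM in control libraries (log2 change -0.85, SE 0.05, edgeR adjusted p 1.54e-17). The groups did not overlap in any of these domains. Atp2b1 RNA had levels of 154, 139 and 135 CPM in VitC libraries and 145, 142 and 142 CPM in control libraries, which overlapped (log2 change -0.02).

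**Figure D3:**
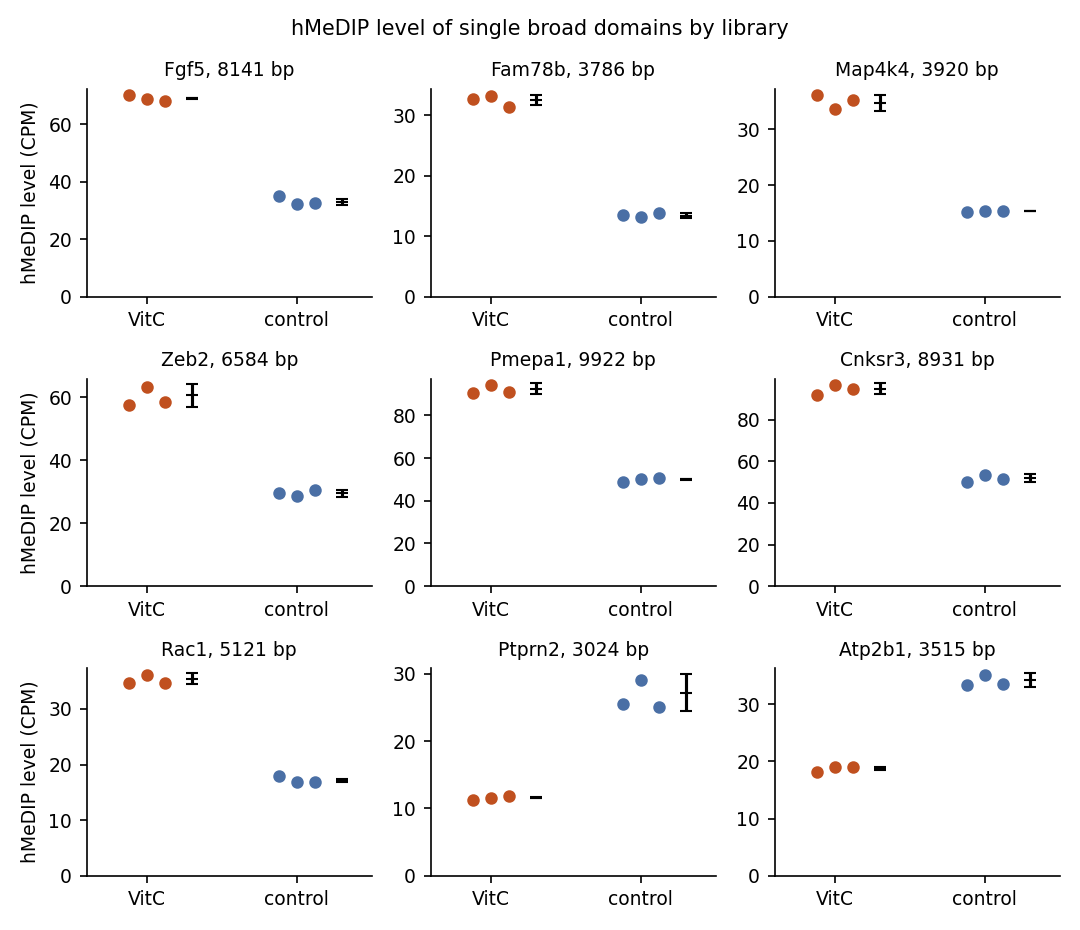
hMeDIP level (vertical axes, CPM, from 0) of 9 single domains in each library, VitC in orange left of control in blue; black marks are the mean ± SD with libraries 1 and 3 averaged first (n = 2). The groups do not overlap in any panel, with Fgf5 near 69.0 CPM in VitC and 33.0 CPM in control libraries and Ptprn2 at 11.6 and 27.2 CPM.

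Rac1, Lgals3, Jade2, Arid1a and Gckr fall outside the rule for naming genes and were picked with their values known. The domain of Rac1, a small GTPase of lamellipodia that radial sorting of axons requires, lay in its outer promoter and had 34.7, 36.1 and 34.7 CPM in VitC libraries and 17.9, 16.9 and 16.8 CPM in control libraries. Lgals3, the lectin galectin-3, had 30.3, 28.7 and 27.8 CPM in VitC libraries and 12.2, 13.1 and 12.8 CPM in control libraries in a domain over its start. Their log2 changes in hMeDIP were 1.05 and 1.19, but neither RNA was called: Rac1 RNA changed by 0.12 (SE 0.05) and Lgals3 RNA by -0.02 (SE 0.07) on the log2 scale. Jade2, a subunit of a histone acetyltransferase complex, had 21.2, 22.2 and 21.7 CPM in VitC libraries and 10.6, 11.2 and 11.1 CPM in control libraries in the domain over its start, and no call in another domain of its body. Arid1a, a subunit of the SWI/SNF chromatin remodeller, held 2 domains, called higher by 0.90 and 0.96 on the log2 scale. Gckr, a regulator of glucokinase, had a domain called lower, with 17.7, 18.4 and 19.5 CPM in VitC libraries and 32.8, 31.0 and 30.3 CPM in control libraries.

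Domains of 1 gene did not all change alike. Of the 284 genes with 2 or more domains, 121 had every domain called higher, 4 had every domain called lower, and 59 had some called higher and some called lower. The standard deviation of the log2 change was 0.27 among domains of the same gene and 0.32 over all 960 domains of these genes. In Nav2, 19 of 22 domains were called higher and none lower, with log2 changes from -0.05 to 0.90, and the summed level of its domains was 1103, 1107 and 1079 CPM in VitC libraries and 867, 834 and 842 CPM in control libraries. Stard13 had 11 of 13 domains called higher, Sh3pxd2a 12 of 14 and Tgfbr3 9 of 12, and no domain of these genes was called lower. Afap1, an actin filament-associated protein, held 5 domains, of which 2 were called higher and 2 lower, with log2 changes from -0.34 to 0.23, and was named with its values known. Of 513 pairs of neighbouring domains within 10 kb, 77.2% had changes of the same sign. Of all single domains 77.3% were above 0, a share of domains that is no baseline for the share of pairs.

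Of 22 transcription factor genes of the Schwann lineage in the list, 10 held 34 domains, of which 33 were called higher and none lower, beside 64.8% higher and 14.1% lower over all domains. All domains include intergenic ones, which no gene list can hold. Of domains in gene bodies 68.8% were called higher and 11.2% lower, and of those in promoter classes 69.9% and 11.9%. These shares are the closer baseline for this and the following gene lists. Their median log2 change was 0.50, beside 0.25 over all domains. RNA of 7 of these 10 genes was called higher and of 1 lower, beside 43.2% higher and 15.8% lower among all genes with a domain and 19.1% and 21.0% among all genes tested. Ets1, an ETS factor, held 7 domains, all called higher, and the widest changed by 0.95 on the log2 scale. Runx2, a runt factor induced in injured Schwann cells, held 9, of which 8 were called higher, and the widest changed by 0.71. Runx2 RNA was 1110, 566 and 567 CPM in VitC libraries and 493, 439 and 428 CPM in control libraries, with VitC library 1 far above the others. Without that library its RNA log2 change was 0.32, against 0.71 with it, and the call was lost when any control library was left out (log2 change 0.68 to 0.78). Tead1 RNA, also called higher, was 278, 136 and 126 CPM in VitC libraries and 95.2, 89.6 and 102 CPM in control libraries. RNA counts of the gene lists are given with all libraries only. Foxo3, a forkhead factor, held 2 domains called higher, the widest by 0.23, which turned to -0.06 with the second pass scaled alone. Zeb2 RNA was 2009, 1697 and 1590 CPM in VitC libraries and 608, 567 and 561 CPM in control libraries, a log2 change of 1.60 (SE 0.09, edgeR adjusted p 5.14e-06).

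In the list of neuregulin and growth factor signalling, 10 of 28 genes held 26 domains, 20 called higher and 3 lower, beside 64.8% and 14.1% of all domains, with a median of 0.51. RNA of 8 of these genes was called higher and of 1 lower, beside 43.2% and 15.8% of all genes with a domain. Fgf5 RNA rose with its domains, at 356, 340 and 316 CPM in VitC libraries and 160, 151 and 150 CPM in control libraries (log2 change 1.12, SE 0.06, edgeR adjusted p 5.32e-06). Cnksr3, a scaffold of MAPK signalling, held a domain of 8931 bases with a log2 change of 0.89 (SE 0.05), and its RNA log2 change was 0.80. Ngfr, the p75 neurotrophin receptor, held a domain of 11428 bases called higher by 0.45, and its RNA was not called (log2 change 0.11, SE 0.07). Pik3r1, a regulatory subunit of PI3-kinase, held 3 domains, all called higher. Igf1r and Pdgfa, a receptor and a ligand of growth factor pathways, went the other way: their widest domains were called lower by 0.41 and 0.19 on the log2 scale, while RNA of Igf1r was higher by 1.11 and of Pdgfa by 0.36. Both were chosen with their values known, and the changes of their domains turned positive under a scaling to all counted reads, at 0.05 and 0.27.

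In the TGF-beta and BMP list, 11 of 26 genes held 39 domains, 31 called higher and 2 lower, beside 64.8% and 14.1% of all domains, with a median of 0.33. RNA of 8 of the 11 was called higher and of none lower, beside 43.2% and 15.8% of all genes with a domain. Pmepa1, a TGF-beta target that restrains SMAD signalling, held 5 domains, all called higher. Its widest, of 9922 bases, had 90.4, 94.3 and 91.1 CPM in VitC libraries and 49.0, 50.2 and 50.8 CPM in control libraries, although it stood in the first pass of the list. Pmepa1 RNA was 269, 212 and 207 CPM in VitC libraries and 115, 113 and 111 CPM in control libraries, a log2 change of 1.01. Tgfbr2, the type II receptor, held 5 domains, all called higher, the widest by 0.82, and its RNA log2 change was 0.37. Tgfbr3 RNA was 179, 156 and 142 CPM in VitC libraries and 50.7, 52.1 and 55.5 CPM in control libraries, a log2 change of 1.58, and its widest domain changed by 0.33. Smurf1, a ubiquitin ligase that targets SMAD proteins and receptors, was the exception among the 4 genes of the list with the widest domains: its widest domain was called lower by 0.14, with 38.1, 37.7 and 35.5 CPM in VitC libraries and 41.8, 41.3 and 41.0 CPM in control libraries. Its other 3 domains were called higher, and the widest turned positive, at 0.31, under a scaling to all counted reads.

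Among fibrillar and microfibril matrix genes, 4 of 27 held 10 domains, 9 called higher and none lower, beside 64.8% and 14.1% of all domains, and RNA of all 4 was called higher, beside 43.2% of all genes with a domain. Col1a1, the alpha1 chain of collagen I, had a domain of 8464 bases with 79.0, 80.8 and 74.8 CPM in VitC libraries and 47.3, 44.9 and 48.3 CPM in control libraries. Col5a1, a collagen V chain, held 5 domains, all called higher, and Thbs2, a matricellular thrombospondin, and Sparc, a collagen-binding matricellular protein, had widest domains called higher by 0.67 and 0.43. Col1a1 is also a fibroblast marker: the summed RNA level of the fibroblast marker list was 9268 to 10910 CPM in VitC libraries and 4538 to 4688 CPM in control libraries. Col1a1 made up most of it, 3 of the 4 tested genes of that list were called lower in RNA, and Dpt was at 0 in every library. Whether cells of another type or more RNA per cell account for the RNA levels cannot be told apart in bulk samples. Of 25 basement membrane and receptor genes, 9 held 22 domains, 16 called higher and 2 lower, a share higher near that of all domains, including Utrn, an anchor between actin and dystroglycan, Lama4 and Lamc1, laminin chains, and Col4a1, a collagen IV chain, whose widest domains were higher by 0.27, 0.35, 0.15 and 0.33. Of 20 genes of collagen and elastin modification, 6 held 11 domains, 10 called higher, with Timp3, a metalloproteinase inhibitor, at 0.60, Plod1, a lysyl hydroxylase, at 0.72 and Adamts14, a procollagen peptidase, at 0.20. P4ha3, a prolyl 4-hydroxylase subunit, had no call in its widest domain (log2 change -0.01, SE 0.05), while its RNA was called higher by 1.42. With the second pass scaled alone, the domains of Lamc1 and Adamts14 turned negative, at -0.13 and -0.09.

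Genes of myelin, adhesion, Wnt signalling and chromatin varied in their domains. Of 20 myelin and node genes only Ank3 and Mbp held domains: Ank3, which encodes ankyrin-G of the node, had 10 with 8 called higher and 1 lower, and Mbp, myelin basic protein, had 2 with no call and log2 changes of 0.05 and 0.09. Mbp RNA was nevertheless called higher, by 0.77. Wide domains also lay in Myo10, a filopodial myosin, called higher by 0.48, in Prex1, a Rac exchange factor, not called at 0.07, in Tns3, a tensin, called higher by 0.45, and in Vcl, vinculin, called higher by 0.54. In the Hippo and Wnt list, 5 of 29 genes held 7 domains, 6 called higher and none lower, beside 64.8% and 14.1% of all domains, with Lef1, a Wnt effector, at 0.45, Vgll4, a TEAD cofactor, at 0.72 and Tead1 at 0.20. Tcf7l2, another Wnt effector, was not called in its domain (0.11, SE 0.06). In the axon guidance and adhesion list, 8 of 45 genes held 9 domains, 6 called higher and 3 lower, a share higher near the 64.8% of all domains. Cadm4 had 47.3, 49.9 and 44.5 CPM in VitC libraries and 27.7, 25.9 and 27.2 CPM in control libraries, while the domain of Cdh2, N-cadherin, was called lower by 0.21, and those of Unc5b, a netrin receptor, and Cdh13, T-cadherin, were called higher by 0.18 and 0.28. Among genes of chromatin and transcription, the widest domains of Arid5b, a DNA-binding cofactor, Rarb, a retinoic acid receptor, and Zfhx3, a homeobox repressor, were called higher by 0.20, 0.58 and 0.60. Among genes of cytosine methylation and oxidation, 5 of 15 held 7 domains, 5 called higher and 1 lower, a share also near that of all domains: Mbd2, a reader of methylated CG, was called higher by 0.66, Tet3, a TET oxidase, by 0.19 and Cxxc5, a CG-binding protein, by 0.31, and Dnmt1, the maintenance methyltransferase, was not called (-0.04). With the second pass scaled alone, the widest domains of Tead1, Unc5b, Cdh13, Prex1, Tet3, Arid5b and Tcf7l2 had changes between -0.22 and -0.00, and with all counted reads those of Cdh2 and Dnmt1 turned to 0.25 and 0.42.

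Of the marker lists for cell types other than Schwann cells, the fibroblast, perineurial and neuron lists had 1 gene each with a domain, Col1a1, Itgb4 and Tubb3, and the pericyte, macrophage, endothelial, skeletal muscle and melanocyte lists had none. Over the peak list, 859 of 17003 genes held one. The summed RNA of the lists, whose part in the results was not tested, was 196 to 221 CPM in VitC and 77.1 to 81.0 CPM in control libraries for pericytes. It was 457 to 474 CPM in VitC and 106 to 157 CPM in control libraries for skeletal muscle, and 438 to 457 CPM in VitC and 205 to 236 CPM in control libraries for perineurial cells. Itgb4 made up most of the perineurial sum in VitC libraries. Of the 4 tested genes of that list, 2 were called higher and 2 lower in RNA, so the list did not rise as a group. For melanocytes the summed RNA was 76.9 to 113 CPM in VitC and 171 to 174 CPM in control libraries, with Mlana at 0 in every library. For neurons it was 812 to 902 CPM in VitC and 918 to 995 CPM in control libraries, and for endothelial cells 3.16 to 4.46 CPM in VitC and 1.63 to 1.91 CPM in control libraries, with Cdh5 at 0. Of 9 Schwann cell markers, 5 held 10 domains, all called higher, beside 64.8% of all domains, with a median log2 change of 0.52. S100b, a calcium-binding protein used to identify Schwann cells, had 27.4, 28.0 and 25.4 CPM in VitC libraries and 17.0, 16.9 and 17.7 CPM in control libraries. Its RNA was 555, 618 and 602 CPM in VitC libraries and 1125, 1161 and 1215 CPM in control libraries, so its domain rose and its RNA fell (log2 changes 0.66 and -0.99). Gfap had 18.9, 18.9 and 18.2 CPM in VitC libraries and 11.5, 12.2 and 12.2 CPM in control libraries in its domain, and its RNA also rose, to 180 ± 3.36 CPM in VitC cells against 91.7 ± 1.62 CPM in control cells (SD, n = 3 each). The other 3 were Ngfr, Gas7, an actin-associated protein, and Erbb3, a neuregulin receptor, with widest domains higher by 0.45, 0.17 and 0.54, of which Gas7 turned to -0.12 with the second pass scaled alone. S100b, Gfap, Gas7 and Erbb3 were named with their values known.

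Domains at promoters and at or near microRNA genes varied from gene to gene. The list placed 15 domains in proximal promoters, of which 11 were called higher and 2 lower, near the shares of all domains, 64.8% and 14.1%. Itgb4, the integrin beta4 subunit that binds laminin, had 22.8, 22.5 and 22.1 CPM in VitC libraries and 14.3, 15.4 and 14.7 CPM in control libraries. Itgb4 RNA was 418, 393 and 397 CPM in VitC libraries and 99.1, 104 and 102 CPM in control libraries, a log2 change of 1.98 (SE 0.05, edgeR adjusted p 3.04e-07). Prkcd, a protein kinase C isoform, and Mtus1, a microtubule-associated protein, also had promoter domains called higher, by 0.35 and 0.43, but their RNA was called lower, by 0.72 and 0.66 on the log2 scale. Cdc42ep1, a Cdc42 effector, had a promoter domain higher by 0.50 and RNA that was not called (0.04, SE 0.05). The domain over the start of Phox2a had a log2 change of -0.66 (SE 0.06), with every VitC library below every control library, and its RNA was at most 0.167 CPM in any library. Prkcd, Mtus1, Cdc42ep1 and Phox2a are also outside the naming rule.

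Among the microRNA genes whose sequences are shown above, that of miR-23a had domain levels of 25.3, 28.3 and 26.9 CPM in VitC libraries and 18.7, 18.9 and 18.5 CPM in control libraries. This domain was listed at -2506 bases from the transcript start and did not contain that start. The domain of Mir29b1 had 44.2, 46.0 and 42.6 CPM in VitC libraries and 33.2, 34.3 and 34.3 CPM in control libraries, and that of Mir149 had 37.6, 38.1 and 37.5 CPM in VitC libraries and 26.7, 25.8 and 26.1 CPM in control libraries. None of these groups overlapped. Those of Mir3074 and Mir6329 were called higher by 0.32 and 0.31 on the log2 scale, and with the second pass scaled alone neither was called. The RNA libraries gave 0 to 11 reads for each of the 10 microRNA genes and did not measure mature microRNAs.

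Genes that held a broad domain were more often higher in RNA than other genes. All 859 genes were in the RNA table and 800 passed its filter. With edgeR's quasi-likelihood test over all genes, 346 of the 800 were called higher in VitC cells, 43.2%, beside 19.1% of all genes tested, and 126 were called lower, 15.8%, beside 21.0%. In either direction 40.1% of all genes were called. The median log2 change was 0.22 in these genes and 0.02 in the 9221 genes that held narrower peaks only, of which 21.0% were called higher and 20.6% lower. The share called higher was 38.2% in genes with 1 domain, 50.4% with 2 to 4 and 62.7% with 5 or more (n = 51), and the share called lower was 18.2%, 13.2% and 1.96%. Without VitC library 1, 380 of 803 genes with a domain were called higher and 167 lower, and the median log2 change was 0.13. The shares by number of domains are given with all libraries only.

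**Figure D4:**
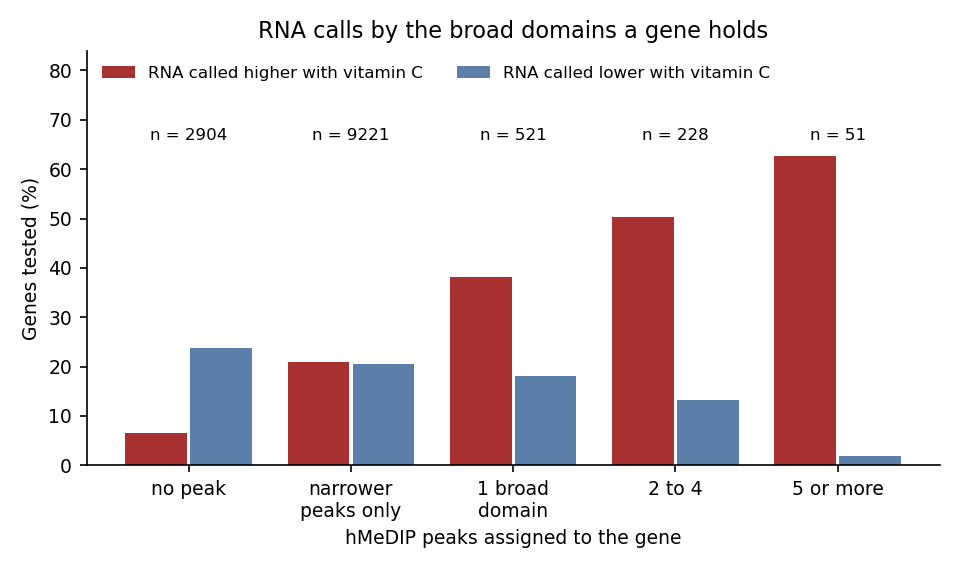
Share of tested genes (vertical axis, percent) whose RNA was called higher (red) or lower (blue) with vitamin C, by the hMeDIP peaks assigned to the gene (horizontal axis); n is the number of genes tested. The share called higher is 6.51% without a peak, 21.0% with narrower peaks only and 62.7% with 5 or more broad domains.

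Genes with a domain were also more highly expressed and longer. Their median level was 6.68 log2 CPM and their median transcript length 68.1 kb, against 4.87 log2 CPM and 26.2 kb for genes with narrower peaks only. Among genes with narrower peaks only, the share called higher was 23.1% in the lowest class of level, 17.0% at 5 to 6 log2 CPM and 26.0% in the highest, and by length it ran from 14.9% under 20 kb to 39.3% at 200 kb or more. In single classes of level the shares also differed. Among genes of 7 to 8 log2 CPM, 45.5% of 154 genes with a domain and 20.5% of 781 without one were called higher. The shares called lower in this class were 16.2% and 24.7%. Among genes of 3 to 5 log2 CPM 34.2% and 21.8% were called higher, and 15.4% and 19.7% lower. By length the difference in the share called higher narrowed. For transcripts under 20 kb 36.0% of genes with a domain and 14.9% of those with narrower peaks only were called higher. For 100 to 200 kb these shares were 54.0% and 35.0%, and for 200 kb or more 46.2% and 39.3%. The shares called lower, in the same order, were 23.7% and 29.0% under 20 kb. They were 23.3% and 19.4% at 20 to 50 kb and 18.0% and 11.2% at 50 to 100 kb. At 100 to 200 kb they were 7.49% and 9.76%, and at 200 kb or more 3.77% and 7.44%. Restricting to genes of at least 5 log2 CPM and 50 kb left 50.3% of 386 genes with a domain and 28.8% of 1448 others called higher. Without VitC library 1 these last shares were 53.9% and 30.4%. The part of length, level and peak number in the difference was not tested.

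The hMeDIP change in a gene's widest domain was alike whatever the RNA call. The median log2 change of the widest domain was 0.24 in the 346 genes with higher RNA, 0.24 in the 328 genes not called and 0.25 in the 126 genes with lower RNA. The widest domain was called higher in 66.5%, 63.7% and 65.9% of these genes and lower in 12.4%, 12.5% and 13.5%. Across the 800 genes, Spearman's correlation of the 2 changes was 0.02, as a description over genes that share libraries.

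**Figure D5:**
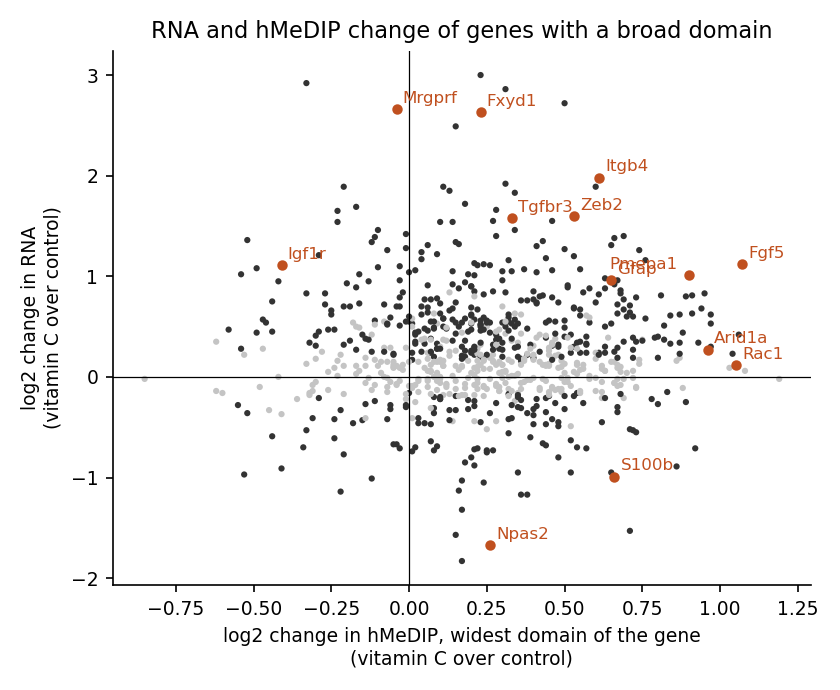
Log2 change in RNA (vertical axis) against log2 change in hMeDIP of the widest domain (horizontal axis), both VitC over control, for 800 genes with a broad domain; dark points are genes called in RNA, and named genes are in orange. Points spread over all quadrants: Fgf5 and Pmepa1 are high on both axes, S100b is at 0.66 in hMeDIP and -0.99 in RNA, and Igf1r is at -0.41 and 1.11.

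The 5 genes with the highest RNA changes differed in their domains. Itgb4, whose values are given above, had a domain called higher by 0.61 (SE 0.06, edgeR adjusted p 4.81e-12), with the groups apart. Mrgprf, an orphan G protein-coupled receptor, had RNA levels of 30.4, 33.3 and 32.5 CPM in VitC libraries and 5.04, 5.28 and 4.75 CPM in control libraries, and its domain had 18.4, 20.3 and 17.5 CPM in VitC libraries and 20.3, 18.7 and 19.8 CPM in control libraries, which overlapped. Fxyd1, phospholemman, a regulator of the sodium pump, had RNA of 126, 160 and 160 CPM in VitC libraries and 22.8, 26.0 and 22.5 CPM in control libraries, beside a domain of 8439 bases called higher by 0.23, which turned to -0.05 with the second pass scaled alone. Neb, the sarcomere protein nebulin, changed by 1.92 in RNA, and its domain was called higher by 0.31. Dysf, the membrane repair protein dysferlin, changed by 1.89 in RNA and was called lower by 0.21 in its domain.

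The 5 genes with the lowest RNA changes all had a domain called higher. The widest domain was called higher in 65.9% of all 126 genes with lower RNA and in 66.5% of the 346 with higher RNA. Npas2, a circadian transcription factor, had RNA levels of 23.9, 18.2 and 18.8 CPM in VitC libraries and 63.5, 63.9 and 65.1 CPM in control libraries, and its domain was higher by 0.26. Flrt3, an adhesion protein of the unc-5 receptors, had RNA of 80.7, 94.6 and 97.3 CPM in VitC libraries and 238, 278 and 264 CPM in control libraries, while its domain had 22.3, 23.2 and 24.2 CPM in VitC libraries and 13.5, 15.2 and 14.4 CPM in control libraries. Both measures separated the groups completely and in opposite directions. Csdc2, an RNA-binding cold shock protein, Synm, the intermediate filament synemin, and Bag3, a co-chaperone, had RNA changes of -1.57, -1.32 and -1.17 and domain changes of 0.15, 0.17 and 0.36 on the log2 scale. With the second pass scaled alone, the domains of Npas2 and Synm turned to -0.02 and -0.12.

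In the genes with the most domains, RNA was usually higher. Stard13 RNA was 834, 685 and 681 CPM in VitC libraries and 400, 395 and 406 CPM in control libraries (log2 change 0.86, SE 0.08). Sh3pxd2a RNA changed by 0.84 (SE 0.10). Nav2 RNA was 1246, 711 and 657 CPM in VitC libraries and 672, 657 and 712 CPM in control libraries, which overlapped, and was not called (log2 change 0.34, SE 0.21). Of the 5 widest domains, none lay in a gene called higher in RNA apart from Zeb2: RNA of Socs5, Pxn and Sh3pxd2b was not called, and that of Vps37b was called lower by 0.24, while their domains were higher by 0.53, 0.56, 0.36 and 0.21. With the second pass scaled alone the Vps37b domain turned to -0.08.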

How the data were processed

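hMeDIP and input reads were deposited by the authors as raw counts per peak, and RNA reads as raw counts per gene, for 3 libraries of each group and assay; CASAVA 1.4, Trim Galore, HTSeq, STAR and BWA appear in the submitters' processing notes, with no step assigned to any. Per the labels, cells were taken at passage 3. The peak caller, how calls were merged and the genome build are not stated. Entries outside features, which hold 64.3% to 69.2% of control and 56.1% to 59.2% of VitC hMeDIP reads, stayed out of the library sizes. Levels (CPM) use TMM factors.

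Counts were tested with edgeR 4.0.16 (quasi-likelihood F test, TMM factors, filterByExpr, Benjamini-Hochberg over all features, threshold 0.05), hMeDIP, input and RNA each in a fit of its own, and hMeDIP relative to input with a term per sample; DESeq2 1.42.0 was an alternative. SE is the log2 change divided by the root of F. Means and SDs of hMeDIP average libraries 1 and 3 of a group first. Over peaks, the chi-square per degree of freedom between these libraries was 0.9625 in control and 0.8961 in VitC cells, against 1.104 and 1.466, and 1.086 and 1.077, for the other pairs, whose upper-tail p was at most 1.14e-133. The rule as written, a limit of 1.1 passed by another pair of the group, would have summed the control pair alone; that version is among the alternatives. Input pairs gave 0.9781 to 0.9885 and no pair stood apart, so 3 libraries were kept; RNA pairs gave 5.268 to 40.98. Precision is limited by the sample number, and intervals from counts would cover counting error only. The fits were tested on simulated counts, in which few features changed and in both directions. With 73.2% of real hMeDIP peaks called, that simulation cannot test the scaling of the real counts.

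Genes named are the 5 widest domains, the 5 of smallest p in each direction with non-overlapping groups, the 5 genes with most domains, up to 4 genes per list by widest domain, the 5 highest and 5 lowest RNA changes past the threshold at 3 or more log2 CPM, and Fgf5, Pmepa1, Cnksr3, Map4k4 and Fam78b; others are marked, and 1 gene and the counts of 2 gene lists are not reported here. Members, the 12 gene lists and the 9 marker lists were chosen with earlier results of these data known. A gene list's size counts the gene IDs that carry its symbols in the peak list. Same-numbered hMeDIP and input samples did not deviate together. Same-numbered RNA samples had correlations of 0.061 to 0.213, and differently numbered ones -0.221 to 0.193. No block was used. Promoter and microRNA sequences are from RefSeq (GRCr8).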

Additional observations from a re-analysis of the deposited data

How the results depend on the processing

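Domain counts kept within 1.5 times of 1389 higher and 303 lower under DESeq2, RLE factors, library size in peaks, both filters, 3 libraries in each group and the pair of control libraries summed alone. Exceptions were scaling to all counted reads, which moved the median of all peaks to 0.49 (0.05 with TMM factors) and gave 7 lower, and the second pass alone, with 652 higher and 710 lower. Leaving out 1 library gave 1262 to 1415 higher and 257 to 314 lower. Widths of 2500, 4000 and 5000 bases or more gave 2497, 551 and 234 higher and 716, 70 and 12 lower domains, from different numbers of regions. Enrichment over input gave 1788 higher and 9 lower with all counted reads. RNA of genes with a domain gave 249 to 380 higher and 96 to 167 lower without 1 library, and 74 lower with all counted reads. By width it gave 214 lower at 2500, 156 higher and 50 lower at 4000, and 68 higher and 22 lower at 5000 bases or more. The share of reads in domains kept its sign throughout: without 1 library the difference, VitC minus control, was 1.04 to 1.15 percentage points of reads in peaks and 0.858 to 1.03 of all counted reads.

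The replicate block (same-numbered correlations of -0.029, -0.2 and -0.11 in hMeDIP and 0.213, 0.083 and 0.061 in RNA) gave 1329 higher and 265 lower domains, 355 and 129 genes in RNA, and 1064 and 164 domains in enrichment; it is not taken as a pairing. With a correlation of -0.201 after summing, the crossed pairing gave 1453 higher and 315 lower.

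Of 1720 alternative values of 102 named domains, 31 had the opposite sign, and of 1144 of 88 RNA results, 0; 44 hMeDIP and 44 RNA values lost their call. With the second pass scaled alone, which lowers a second-pass peak by a median of 0.28, the log2 change was -0.08 in Vps37b, -0.01 in Nav2, -0.06 in Foxo3, -0.13 in Lamc1, -0.09 in Adamts14, -0.18 in Tcf7l2, -0.09 in Tead1, -0.11 in Unc5b, -0.00 in Cdh13, -0.22 in Prex1, -0.10 in Tet3, -0.08 in Arid5b, -0.05 in Fxyd1, -0.02 in Npas2, -0.12 in Synm, -0.11 in Murc, -0.08 in Prkcd, -0.12 in Tiam1, -0.13 in Nid2 and -0.12 in Gas7. With all counted reads it was 0.44 in P4ha3, 0.31 in Smurf1, 0.25 in Cdh2, 0.42 in Dnmt1, 0.44 in Mrgprf, 0.24 in Dysf, 0.05 in Igf1r, 0.27 in Pdgfa, 0.35 in Gdnf, 0.24 in Sema4f and 0.44 in Rbms3. Without VitC library 1 the RNA change was 0.61 in Fam78b, 0.20 in Ank3, 0.46 in Tead1, 0.24 in Tet3 and 0.22 in Dst, against 1.07, 0.35, 0.90, 0.45 and 0.42 with it. The causes were not tested. With n = 2, hMeDIP differences in levels cannot pass an exact test.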
